A study of Mus musculus with 6 samples.

Results

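The region described here is the Klf6 locus of the mouse with its upstream flank, a window on chromosome 13 from 5750000 to 5900000 in mm9, in DNase I hotspot lists of 6 macrophage libraries. Its members are all hotspots that overlap this window. There were 102 of them over the 6 libraries, and where hotspots overlapped they were merged into 24 regions, of 59069 merged regions in the genome. The window was chosen by the listing of hotspots, since earlier results of these lists showed a run of regions there that were listed with LPS alone and not with Dex. Listing, tag density, z-score, width and rank with Dex against LPS alone are therefore given as a description, with no test.

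DNase-seq maps accessible chromatin, because DNase I cuts DNA where it is not covered by nucleosomes, and a hotspot is a stretch with more cuts than its surroundings. All 6 libraries were made from C57BL/6J macrophages grown from bone marrow, and all cells received LPS, the cell wall component of bacteria that activates macrophages, for 8 h. The 2 libraries called Dex before LPS came from cells pre-treated with Dex, the 2 called late Dex from cells given Dex late in the LPS treatment, and the 2 called LPS alone from cells without Dex. Dex is the glucocorticoid of the study, a steroid that binds the glucocorticoid receptor. The labels give neither a dose of Dex or LPS nor the interval between the agents, and they name no animal or culture for a replicate. Cells without LPS were not analysed here. The lists name no genes and no mm9 annotation was used, so the macrophage label was not checked against marker genes.

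Klf6 encodes a zinc-finger transcription factor of the Krüppel-like family, whose members bind GC-rich and CACCC-type sequences in promoters and enhancers. In macrophages KLF6 is known as an activator of inflammatory genes that works together with NF-kB. The glucocorticoid receptor acts as a ligand-dependent transcription factor, which activates some genes through its own DNA sites and lowers the activity of inflammatory genes driven by NF-kB and AP-1. Klf6 lies on the plus strand with its start near 5.861 Mb, a position known here to the nearest 1 kb. In the order of the RefSeq annotation of GRCm38.p6, the nearest protein-coding gene before Klf6 is Akr1e1, an aldo-keto reductase gene, and the next after it is Pitrm1, which encodes a mitochondrial peptidase. The genes directly before Klf6 in that order, 1700016G22Rik, Gm35464 and Gm35413, are annotated as long noncoding RNAs.

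The promoter is shown because a strong region that every library lists covers the Klf6 start. These are the 250 bases before the start in RefSeq's GRCm38.p6 (chr13:5861239-5861488, plus strand, positions of that build and not of mm9). Capitals mark the CCAAT boxes, the GC box and the E-box found in it.
Klf6 promoter: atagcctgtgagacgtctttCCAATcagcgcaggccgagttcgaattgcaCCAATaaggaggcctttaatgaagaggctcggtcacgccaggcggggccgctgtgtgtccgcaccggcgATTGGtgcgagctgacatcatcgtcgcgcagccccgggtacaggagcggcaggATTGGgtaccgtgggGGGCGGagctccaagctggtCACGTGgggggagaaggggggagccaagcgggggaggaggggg
G and C made up 64.8% of these bases, against a median of 52.4% over 32851 promoters of the table cut to the same length. On either strand the sequence held 4 CCAAT boxes (CCAAT), which 33.8% of the promoters hold at least once. It held 1 GC box (GGGCGG, in 32.7% of promoters) and 1 palindromic E-box (CACGTG, in 6.02%), and no motif overlapped another. The AP-1 letters TGANTCA (in 6.75% of promoters), the glucocorticoid receptor half-site AGAACA (in 16.1%) and the NF-kB consensus (in 7.25%) were not found in these 250 bases. The matches are letters in 1 window and no measurement of binding.

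The Dex libraries listed fewer hotspots in the window than the LPS libraries, and the difference lay upstream of the gene. The upstream hotspots include those of the regions listed with LPS alone for which the window was chosen. Part of this difference thus follows from that choice, and no count without those regions was made. The Dex before LPS libraries listed 14 and 18 hotspots, the late Dex libraries 15 and 12, and the LPS libraries 21 and 22. The groups did not overlap between Dex and LPS alone, while the Dex groups overlapped each other. Over their whole lists the Dex libraries were shorter too, with 34646 and 44686 hotspots for Dex before LPS, 29347 and 44447 for late Dex, and 48084 and 51834 for LPS alone. As a ratio of group means to LPS alone, the window held 0.744 times as many hotspots with Dex before LPS where the whole lists held 0.794 times as many, and 0.628 times as many with late Dex where the lists held 0.739 times as many.

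Of the 24 regions, 16 lay wholly upstream of the Klf6 start and 8 at the start or beyond it. Hotspots of the upstream flank numbered 7 and 9 with Dex before LPS, 7 and 7 with late Dex, and 16 and 15 with LPS alone. The means were 8 ± 1.41, 7 ± 0 and 15.5 ± 0.707 in that order of groups (SD, n = 2 each), or 0.516 times the LPS level with Dex before LPS and 0.452 times with late Dex. From the start onwards the hotspots numbered 7 and 9 with Dex before LPS, 8 and 5 with late Dex, and 5 and 7 with LPS alone, so the groups overlapped there. The length covered by hotspots upstream was 6941 and 8587 bp with Dex before LPS, 5688 and 7911 bp with late Dex, and 14012 and 14948 bp with LPS alone. No Dex library reached the covered length of either LPS library there. This length, like the number, includes the regions for which the window was chosen. From the start onwards, hotspots covered 7771 and 9954 bp with Dex before LPS, 6937 and 9060 bp with late Dex, and 10194 and 12947 bp with LPS alone. The LPS libraries were again above every Dex library, by a smaller margin and with similar numbers of hotspots, so single hotspots were longer there. Over the whole lists the groups did not overlap either. Cover was 28.1 and 37.6 Mb with Dex before LPS, 23.5 and 36.2 Mb with late Dex, and 40.6 and 44.3 Mb with LPS alone. Mean cover with Dex before LPS was 0.536 times the LPS level upstream, 0.766 from the start onwards and 0.775 over whole lists. With late Dex it was 0.470, 0.691 and 0.703 in that order, so beyond the start it was close to the lists.

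Since the lists differ in length, the numbers were also taken from the strongest 29347 hotspots of each library. The window then held 13 and 9 hotspots with Dex before LPS, 15 and 10 with late Dex, and 14 and 11 with LPS alone, so the groups overlapped and the late Dex mean equalled that of LPS alone. In the upstream flank there were 6 and 4 with Dex before LPS, 7 and 6 with late Dex, and 11 and 8 with LPS alone. The upstream cover was 6683 and 6175 bp with Dex before LPS, 5688 and 7365 bp with late Dex, and 11745 and 9498 bp with LPS alone. Upstream of the gene, both LPS libraries were above all Dex libraries in number and length. The closest numbers were 8 in replicate 2 of LPS alone and 7 in replicate 1 of late Dex. The window was chosen for its LPS-only regions, of which 3 still counted as LPS-only in these lists. The upstream order thus rests in part on that choice. How often other stretches of the genome show this order was not computed.

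**Figure D1:**
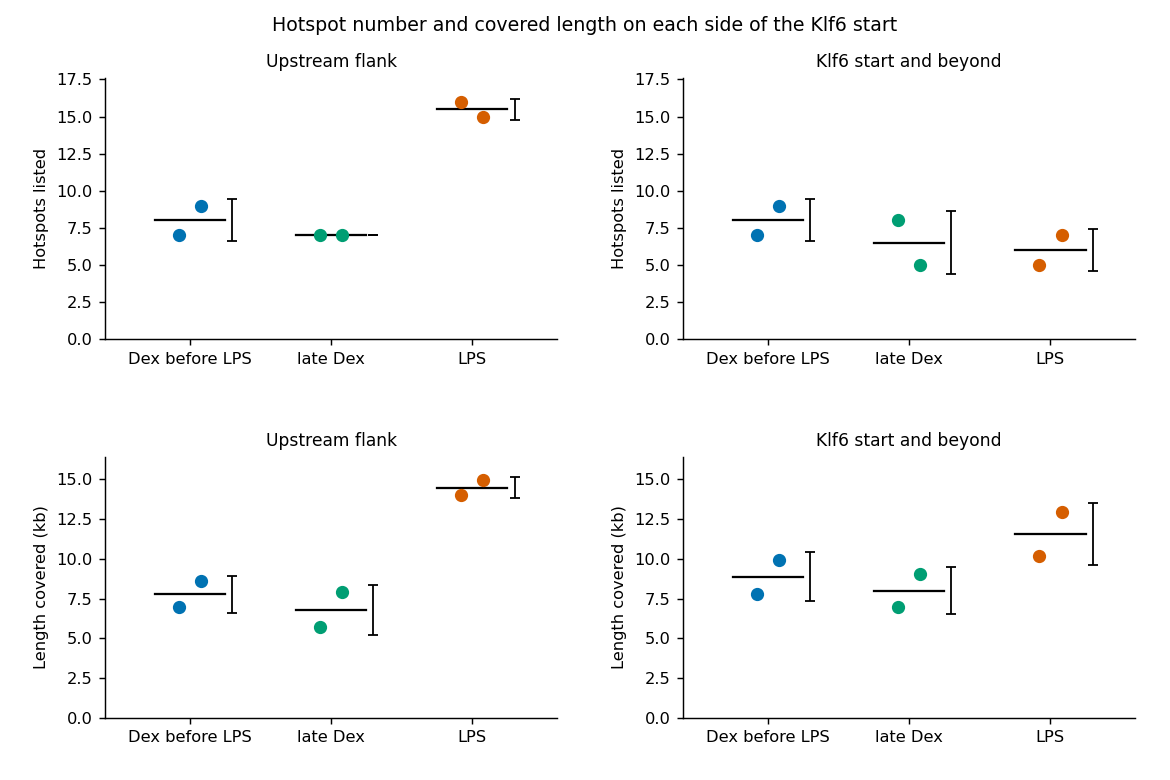
Hotspots listed (upper panels) and length covered in kb (lower panels) upstream of the Klf6 start (left) and from the start onwards (right), for the Dex before LPS, late Dex and LPS libraries. Points are libraries, horizontal lines group means and bars beside them 1 SD (n = 2 each). The LPS libraries list 16 and 15 upstream hotspots, above the 7 to 9 of the Dex libraries, while from the start onwards the numbers overlap. The upstream values include the regions for which the window was chosen.

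The Dex groups were also set against each other, since the series title asks about the timing of glucocorticoid treatment and the choice of the window did not use this difference. The Dex before LPS mean exceeded the late Dex mean by 2.5 hotspots and by 1828.5 bp of covered length over the whole window. Neither difference was larger than the spread between libraries (exact two-sided permutation p = 0.667 for each, and 0.667 after Benjamini-Hochberg adjustment over the 2 tests). With 2 libraries against 2 the smallest p such a test can give is 0.333. The sign for covered length rested on single libraries. It was -86 bp without replicate 2 of Dex before LPS and -344.5 bp without replicate 1 of late Dex.

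Regions listed by both LPS libraries and by no Dex library, called LPS-only, numbered 6 of the 24, where 5.18% of all merged regions of the genome are LPS-only. All 6 lay upstream of the gene, between 5775896 and 5823131, a span of 47.2 kb. No region of the window was Dex-only, that is, listed by all 4 Dex libraries and by neither LPS library, a class that holds 0.389% of all merged regions. The regions listed by all 6 libraries numbered 10, where 42.5% of all merged regions are in this class. When the genome was cut into consecutive windows of the same length, 10038 of them held at least 1 region and 75.3% of these held no LPS-only region. Only 1 held as many as 6 LPS-only regions, and it covers the same stretch of chromosome 13, from 5700000 to 5850000. The windows that followed held 5 each, on chromosome 8 from 127800000 to 127950000, on chromosome 2 from 148200000 to 148350000 and on chromosome 16 from 24900000 to 25050000. In that order of windows, merged regions of any class numbered 19, 11, 17 and 23. The median window held 5 regions of any class, and 9 of the 10038 held as many as the 24 of the Klf6 window or more. Its LPS-only count thus stands beside mostly sparser windows, and it was chosen for such regions.

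**Figure D2:**
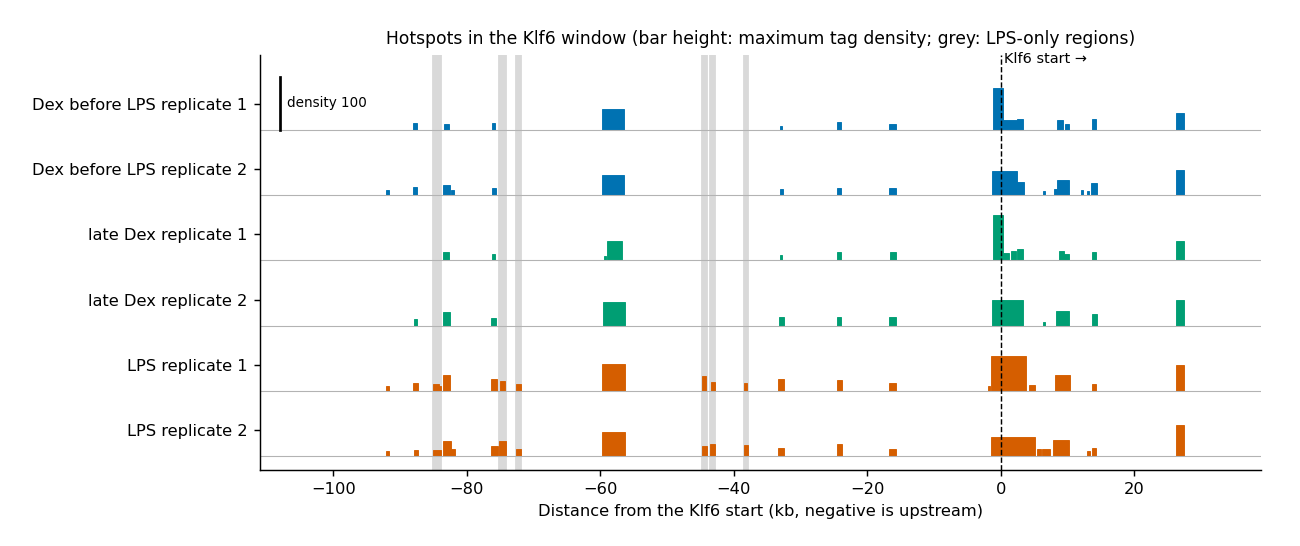
Hotspots of the Klf6 window in each library, placed by their distance in kb from the Klf6 start (dashed line, negative is upstream). Bar height is the deposited maximum tag density, with a scale bar of 100 at the upper left, and grey bands mark the 6 LPS-only regions. By definition of the class, the bands hold hotspots in both LPS libraries and in none of the 4 Dex libraries.

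The LPS-only regions fell into 2 clusters of 3 regions each. By their nearest edges, the regions lay 71.9 to 83.8 kb and 37.9 to 44.0 kb upstream of the Klf6 start. In the far cluster, the region at 5785889 to 5786864 had maximum tag densities of 18.7 and 29.2 and z-scores of 18.0 and 25.8 in the LPS libraries. Its mean percentile in the LPS lists, ranked by z-score, was 60.97, which placed it at rank 7 among the 3062 LPS-only regions of the genome. The region at 5775896 to 5777186 had densities of 13.0 and 13.2, at z-scores of 14.96 and 11.6. The region at 5788310 to 5789138 had 14.0 and 13.9, at z-scores of 13.0 and 13.8. These last 2 had the lowest maximum densities of the 6 in both libraries, while by z-score this order did not hold in replicate 1, and replicate 2 listed the region at 5785889 more strongly than replicate 1.

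In the near cluster, the region at 5816212 to 5817009 had maximum tag densities of 29.4 and 19.4 in the LPS libraries, at z-scores of 23.5 and 15.6. Beginning 485 bp after its end, the region at 5817494 to 5818145 had densities of 18.1 and 24.6, at z-scores of 13.1 and 17.3. The replicates thus ranked these neighbours in opposite order. The region at 5822475 to 5823131 had densities of 15.4 and 21.9, at z-scores of 15.5 and 17.3. Among the LPS-only regions of the genome these 3 held the ranks 23, 120 and 59 by mean percentile.

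The 6 regions were stronger and wider than most of their class. Their mean percentiles ran from 34.9 to 60.97 with a median of 46.1, where the median over the 3062 LPS-only regions was 18.8, and 351 of the 3062 (11.5%) were at or above the weakest of the 6. Their median width was 812.5 bp, against 546 bp over the class. In the same window the Dex libraries listed hotspots with maximum densities down to 7.82 and 7.97 (Dex before LPS) and 8.80 and 7.09 (late Dex). The lowest maximum density of an LPS-only region in an LPS library was 13.0. A further hotspot in the region at 5775896 had 9.36 at a z-score of 8.59 in replicate 1 of LPS alone. How densities were scaled between lists is not stated. The lowest z-score of a whole list was 9.34 and 9.16 with Dex before LPS and 11.5604 and 8.98 with late Dex. With LPS alone it was 7.98 and 8.35. Taking each region's maximum, the lowest z-score of the 6 was 11.5853, in replicate 2 of LPS alone. Whether a Dex list could have held these regions was not tested. The LPS libraries may also be the more deeply sequenced ones. Maximum densities were whole multiples of a step in every library (100% within 0.1 of a step), and the step was 0.412 and 0.380 with Dex before LPS, 0.400 and 0.443 with late Dex, and 0.334 and 0.347 with LPS alone. If all lists were scaled to 1 total, which no source states, a smaller step means more tags, and the part of depth in the listing was not tested.

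**Figure D3:**
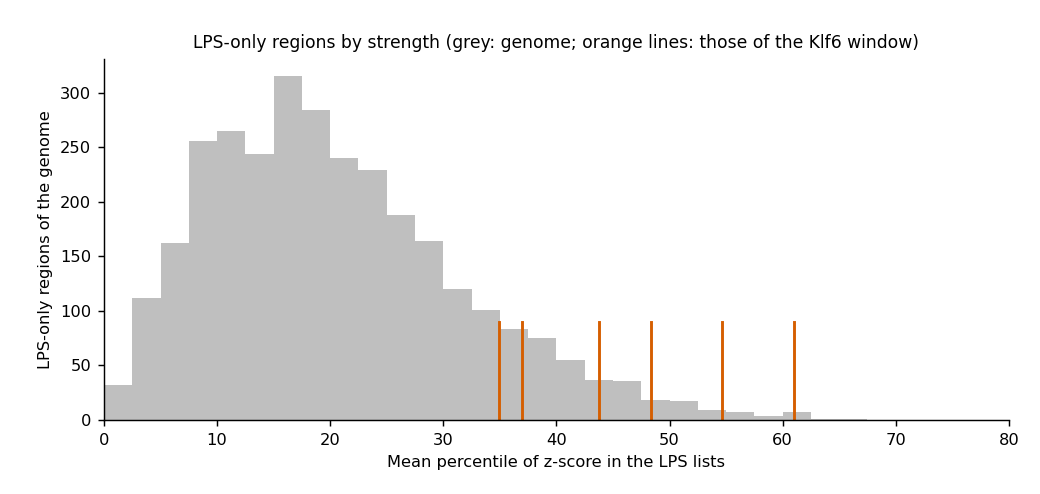
Number of LPS-only regions of the genome (grey bars, 3062 regions) by their mean percentile of z-score in the LPS lists. Orange lines mark the 6 regions of the Klf6 window, which stand between 34.9 and 60.97, above the median of 18.8.

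The lists were then cut in several ways to see which of the 6 regions still counted as LPS-only. With a common minimum z-score of 11.5604 all 6 did, where 3.02% of all regions so merged are LPS-only. The region at 5775896 passed narrowly, with 11.5853 in replicate 2 of LPS alone. With the stronger 50% of each list 1 of the 6 did, the region at 5785889, where 5.3% of all regions so merged are LPS-only. With the strongest 29347 hotspots of each library, 3 did, those at 5785889, 5816212 and 5822475, where 1.8% of all regions so merged are LPS-only. Joining hotspots up to 500 bp apart left 15 regions in the window, of which 3 were LPS-only and 9 were listed by all 6 libraries. Over all joined regions of the genome these shares were 4.95% and 44.6%. The joined hotspots in the window numbered 11 and 14 with Dex before LPS, 10 and 12 with late Dex, and 16 and 14 with LPS alone, so replicate 2 of Dex before LPS equalled replicate 2 of LPS alone. Joining merged the regions at 5816212 and 5817494 into 1 LPS-only region from 5816212 to 5818145, while the regions at 5775896 and 5785889 became part of regions that all libraries list. In the far cluster only the region at 5788310 stayed LPS-only when joined, while the near cluster stood apart from any shared region under both ways of merging.

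Beside these, 4 of the 6 shared regions of the upstream flank were denser in both LPS libraries than in any Dex library. Of the 10 regions listed by all 6 libraries, 6 had a maximum tag density in both LPS libraries above all 4 Dex libraries, an order that 9.11% of the 25091 shared regions of the genome show. The opposite order, all 4 Dex libraries above both LPS libraries, held for 1 of the 10 and for 8.25% of the genome's shared regions. No source states how densities were scaled between lists. Divided by each list's median density over the 25091 shared regions, which lay between 17.6 and 19.7, the counts were 7 (9.45% in the genome) and 1 (8.96%).

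The region at 5777371 to 5778643, 82.4 kb upstream, had densities of 10.3 and 20.1 with Dex before LPS, 16.8 and 27.0 with late Dex, and 31.1 and 30.2 with LPS alone. It directly follows the LPS-only region at 5775896, and its percentile within each list was 33.8 and 53.1 with Dex before LPS, 41.1 and 66.4 with late Dex, and 72.99 and 71.1 with LPS alone. Percentiles come from lists of different lengths and show no change by themselves. The region at 5784595 to 5785634, next to the LPS-only region at 5785889, had 12.8 and 13.7 with Dex before LPS, 13.2 and 14.2 with late Dex, and 23.1 and 19.4 with LPS alone. In both places every Dex library was below both LPS libraries, and the group means were 0.496 and 0.622 times the LPS mean with Dex before LPS and 0.715 and 0.644 times with late Dex. The region at 5836411 to 5837212, 23.8 kb upstream, had 14.8 and 13.7 with Dex before LPS, 16.0 and 17.7 with late Dex, and 22.1 and 24.0 with LPS alone, again without overlap.

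The widest upstream region, at 5801201 to 5804649, lay between the 2 clusters of LPS-only regions. Its densities were 39.5 and 37.6 with Dex before LPS, 37.6 and 45.2 with late Dex, and 52.2 and 46.5 with LPS alone. The LPS libraries were above all Dex libraries here too, but by little between the replicate 2 libraries of late Dex and of LPS alone. The z-scores did not share this order, at 46.9 and 40.9 with Dex before LPS, 43.6 and 41.1 with late Dex, and 50.6 and 38.9 with LPS alone. The region was thus listed at a high density in every library. The LPS-only regions on either side of it are by definition in no Dex list.

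At 2 upstream regions the groups overlapped. The region at 5827560 to 5828522 had densities of 7.82 and 11.8 with Dex before LPS, 10.8 and 16.4 with late Dex, and 23.7 and 16.0 with LPS alone, so replicate 2 of late Dex exceeded replicate 2 of LPS alone. Relative to the list medians the order was reversed for that pair, at 0.841 with late Dex and 0.852 with LPS alone. The region nearest the gene among these, at 5844194 to 5845357 and 15.6 kb upstream, had 11.5 and 14.4 with Dex before LPS, 16.8 and 16.4 with late Dex, and 14.7 and 13.5 with LPS alone. There the late Dex libraries were the highest and the Dex before LPS libraries lay below both LPS values in replicate 1 and between them in replicate 2.

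**Figure D4:**
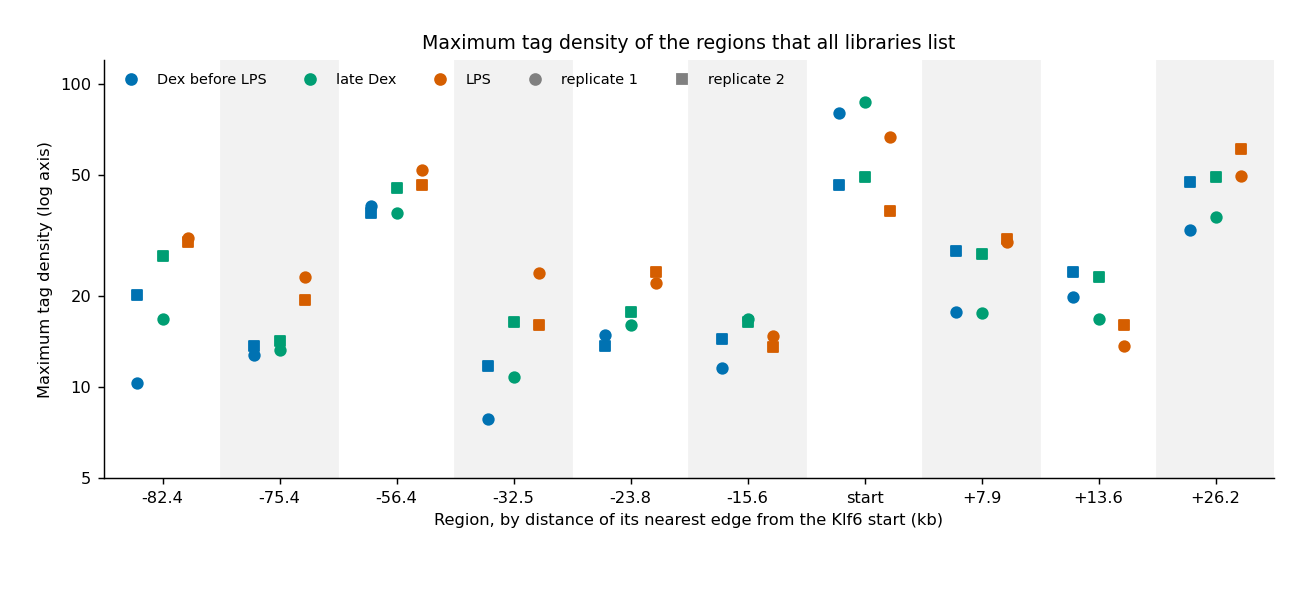
Maximum tag density (log axis) of the 10 regions that all 6 libraries list, ordered along the chromosome by the distance in kb of their nearest edge from the Klf6 start. Colours stand for Dex before LPS, late Dex and LPS, circles for replicate 1 and squares for replicate 2. LPS values are the highest at most upstream regions and the lowest at 13.6 kb downstream, where they are 13.7 and 16.0 against 16.8 to 23.9 in the Dex libraries.

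At the gene itself the picture was different. The region over the Klf6 start, from 5859601 to 5866133, was the densest of the window in replicate 1 of each group. In the replicate 2 libraries the region at 5887243 was as dense or denser. Its maximum densities were 80.3 and 46.3 with Dex before LPS, 87.2 and 49.2 with late Dex, and 66.9 and 38.2 with LPS alone. Within each list the region over the start stood at the percentiles 94.3 and 89.8 with Dex before LPS and 94.3 and 89.9 with late Dex. With LPS alone it stood at 93.3 and 86.9, a strong region in all lists. In each group replicate 1 was far above replicate 2, and the groups overlapped. The group means were 1.21 times the LPS mean with Dex before LPS and 1.30 times with late Dex, a smaller difference than that between the replicates of any group.

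The extent of that region differed more clearly than its height. Hotspots covered 4429 and 4733 bp of it with Dex before LPS, 3795 and 4722 bp with late Dex, and 6174 and 6503 bp with LPS alone. In the Dex libraries they ended between 5864367 and 5864440, some 3.37 to 3.44 kb after the start, and in the LPS libraries at 5866133 and 5866112, about 5.13 and 5.11 kb after it. The LPS libraries thus listed a further stretch downstream of the start. Of the 10 shared regions, 5 were covered over a longer length in both LPS libraries than in any Dex library, an order that is common among the genome's shared regions, at 33.9%. The number of hotspots within the region was 3 and 2 with Dex before LPS, 4 and 1 with late Dex, and 2 and 1 with LPS alone. The tallest hotspots of the replicate 1 Dex libraries, at 5859834 to 5861277 and 5859822 to 5861293, were short and reached z-scores of 101.1 and 106.5, while the hotspot at 5859601 to 5864826 in replicate 1 of LPS alone had 84.5. Joined across 500 bp, it became part of 1 region from 5859080 to 5871306 that all libraries list. The caller drew these boundaries differently from library to library, so z-scores of that region describe stretches of unequal length.

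Beyond the start, the region at 5868859 to 5871306 had densities of 17.7 and 28.1 with Dex before LPS, 17.6 and 27.5 with late Dex, and 30.1 and 30.9 with LPS alone. The region at 5887243 to 5888527, 26.2 kb after the start, had 32.9 and 47.5 with Dex before LPS, 36.4 and 49.2 with late Dex, and 49.8 and 61.1 with LPS alone. In both, the LPS libraries were above all Dex libraries in density. The group means were 0.751 and 0.725 times the LPS mean for Dex before LPS and 0.739 and 0.771 times for late Dex. At 5868859 the z-scores did not share this order, while at 5887243 they did. Those at 5868859 were 17.8 and 30.3 with Dex before LPS, 18.8 and 20.5 with late Dex, and 26.6 and 27.5 with LPS alone.

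Between the regions at 5868859 and 5887243 lay the region of the window that was denser in every Dex library. The region at 5874556 to 5875382, 13.6 kb after the start, had densities of 19.8 and 23.9 with Dex before LPS, 16.8 and 23.0 with late Dex, and 13.7 and 16.0 with LPS alone. Its z-scores were 24.995 and 26.3 with Dex before LPS, 20.2 and 24.7 with late Dex, and 11.2 and 14.5 with LPS alone. The groups did not overlap in either value. In density this order held for 1 of the window's 10 shared regions, and holds for 8.25% of those of the genome. No such share was computed for z-scores. The group means of density were 1.47 times the LPS mean with Dex before LPS and 1.34 times with late Dex. It was also the shared region of the window with a longer cover in every Dex library, at 681 and 826 bp with Dex before LPS, 646 and 732 bp with late Dex, and 539 and 640 bp with LPS alone, an order found in 1.46% of the genome's shared regions. In lists of equal length it became Dex-only, because it fell below the cut in both LPS lists. The genome share of Dex-only regions in such lists was not computed.

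The other 8 regions were listed by 1 to 5 libraries, at maximum densities of 15.6 or less. The region at 5772947 to 5773648 was listed by all libraries but replicate 1 of late Dex. The region at 5768937 to 5769318 was listed by both LPS libraries and replicate 2 of Dex before LPS. Of the remaining 6, 5 were listed by replicate 2 libraries alone and 1, at 5859080 to 5859346, by replicate 1 of LPS alone. The region at 5867133 to 5868375 was listed by the replicate 2 library of each group, with densities of 7.97 for Dex before LPS, 7.09 for late Dex and 14.9 for LPS alone. A single region, at 5872979 to 5873304, was listed by no LPS library, and it came from replicate 2 of Dex before LPS with a density of 9.49.

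The edges of the window did not cut through a run of regions. The last region before it, at 5734312 to 5734963, had densities of 8.65 and 7.97 with Dex before LPS and 9.36 and 7.64 with LPS alone, and was not listed with late Dex. The first region inside it, at 5768937, had 9.49 in replicate 2 of Dex before LPS, and 10.03 and 11.1 with LPS alone. At the other end, the region at 5887243 described above was followed only at 5938548 to 5939033, where replicate 2 of Dex before LPS had 11.01 and the LPS libraries had 11.04 and 10.1.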

How the data were processed

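The data are hotspot lists of 6 DNase-seq libraries, 2 per group as the sample titles give them. Per the labels' protocols, DNase I was used on isolated nuclei at 80 U/ml, at 37 °C for 3 min, DNA of 100 to 500 bp was recovered, and reads were single-end with 51 bases. The submitters' processing notes name CASAVA and the build mm9. An aligner, a hotspot caller, its threshold and the scaling of densities were not found in the labels or headers. The authors' signal values, per the file headers, are a maximum and an average tag density of each hotspot, and the maximum was used here. The authors' score, as deposited, is a z-score that the hotspot caller gave each hotspot. The authors' p-value of each hotspot, as deposited and not stated to be adjusted, was not used. Total tag counts are unknown, so no counting interval was computed. With no animal or culture named, p-values from the permutation tests cover the spread of these libraries alone, possibly a technical one.

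Hotspots were merged across libraries where they shared at least 1 bp, and a library lists a region if any of its hotspots lies in it. A region's density and z-score in a library are the maxima over its hotspots, widths are end minus start, and percentiles rank z-scores within a list. Positions are as in the files, whose first base number is not stated. The window and the Klf6 start come from the definition of the locus, and the window, its classes and its lists were chosen with earlier results of these data known. Full values are given for LPS-only regions, regions of all 6 libraries and those at the Klf6 start. The Dex groups were compared with exact permutation tests over libraries. The merging and classes were tested on simulated lists. Python 3.11.15, pandas 2.3.3 and numpy 2.4.6 were used. The planned look-up of other Krüppel-like factor genes and of cell type markers was not made, since no mm9 annotation was used. The alternatives were joining within 500 bp, lists of equal length, a common minimum z-score, the stronger 50% of each list, a cover of at least 50% of the region, the replicate number as a block, leaving out each library, and densities relative to the list median of shared regions, which was added after the data were seen.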

Additional observations from a re-analysis of the deposited data

How the results depend on the processing

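The number of LPS-only regions, 6 as reported, was 3 with hotspots up to 500 bp apart joined, 3 with lists of equal length and 3 with the stronger 50% of each list. These 3 are not all the same regions. With the stronger 50%, the shared regions at 5784595 and 5836411 became LPS-only beside the region at 5785889. Regions of all libraries numbered 5 with lists of equal length and 3 with the stronger 50%, and 1 region was then Dex-only at equal length. Genome shares of both classes under these settings were not computed. Dex before LPS minus LPS, -5.5 hotspots, was -2.5 when joined and -1.5 at equal length, and for covered length, -9424 bp, it was -5433 bp at equal length. Late Dex minus LPS, -8 hotspots, was -4 when joined, 0 at equal length, -5 from the common minimum z-score and -4.5 with the stronger 50%; for covered length, -11252.5 bp, it was -5662.5 bp at equal length and -8185.5 bp with the stronger 50%. Shorter lists and a higher threshold drop weaker hotspots by construction, and joining fuses neighbours; other causes of these shifts were not tested. The region at 5868859 joins the one over the Klf6 start within 500 bp, so its ratio of mean densities to LPS alone became 1.21 for Dex before LPS and 1.30 for late Dex, those of the start region. Dex before LPS minus late Dex, 2.5 hotspots, was -1.5 at equal length, -0.5 from the common minimum z-score and 1 with the stronger 50%; for covered length, 1828.5 bp, it was 229.5 bp at equal length and 825.5 bp from the common minimum z-score. With each library left out in turn, LPS-only regions numbered 6 to 9 and regions of all remaining libraries 10 to 11. The difference in hotspots lay between -7.5 and -3.5 for Dex before LPS minus LPS and between -9.5 and -6.5 for late Dex minus LPS. For Dex before LPS minus late Dex, covered length lay between -344.5 and 4001.5 bp. Shared regions denser in every LPS library numbered 6 to 7, and those denser in every Dex library 1 to 2. The second was the region over the Klf6 start, without replicate 1 of LPS alone. A cover of at least 50% changed none of the 3 region counts by more than 1.5 times.

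With the replicate block, Dex before LPS minus late Dex was 2.5 hotspots (exact permutation p = 1 over 2 pairs) and 1828.5 bp (exact permutation p = 0.5, the smallest that 2 pairs allow). The labels give the numbers no meaning beyond the replicate, so they were not taken to pair the libraries. Between libraries of the same number, the density over the Klf6 start was 1.20 and 1.21 times the LPS value with Dex before LPS, and 1.30 and 1.29 times with late Dex. Tag totals are not known, so no limit of detection can be given for the regions that a list does not hold.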
